A study of Mus musculus with 4 samples.

Results

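The Tdpoz and Usp17l genes are a pair of multicopy gene families whose transcripts appear and vanish again around the two-cell stage of the mouse embryo. The members were the rows of the deposited gene tables whose symbol starts with Tdpoz or Usp17l, which gave 10 of 24411 listed genes, 5 in each family. The Tdpoz rows were Tdpoz1 to Tdpoz5, and the Usp17l rows were Usp17la, Usp17lb, Usp17lc, Usp17ld and Usp17le. Polyadenylated RNA was sequenced from 4 libraries of late two-cell embryos, 2 from DMSO-treated control embryos and 2 from embryos treated with 6 µM of the MYC inhibitor 10074-G5. All embryos were of the ICR strain, were made by in vitro fertilization, were cultured in KSOM with bovine serum albumin and were collected at 36 hpi, and each library pooled 10 of them. DMSO is the solvent of the inhibitor, a small molecule that keeps MYC from pairing with MAX, and no inactive compound was compared. The labels put the first exposure at 3 hpi, whereas the published methods place it later.

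A TD-POZ protein carries a TRAF (MATH) domain and a POZ (BTB) domain, as does SPOP, which brings proteins to the ubiquitin ligase CUL3. The Usp17l genes code for ubiquitin-specific proteases of the DUB family, which take ubiquitin off proteins and were first described as genes that cytokines induce in blood cells. Both families lie in arrays of tandem copies and are used as marks of the two-cell state, in embryos and in the rare embryonic stem cells that resemble it.

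The Tdpoz rows lie in 1 array on chromosome 3 of GRCm38 (mm10). Tdpoz2 spans 93651542 to 93652686, Tdpoz1 93669333 to 93676283, Tdpoz4 93796398 to 93797510, Tdpoz3 93826020 to 93827117 and Tdpoz5 93960292 to 93961314. The Usp17l rows lie on chromosome 7, with Usp17ld from 103250086 to 103252505 and Usp17lc from 103416696 to 103419174. The other Usp17l copies lie farther along on the same chromosome, with Usp17le from 104767961 to 104777470, Usp17lb from 104840257 to 104842583 and Usp17la from 104857016 to 104862667. Of the Tdpoz family, RefSeq also holds Tdpoz7, Tdpoz8 and Tdpoz9, which the tables list under the older symbols Gm10697, Gm4858 and Gm9125. These 3 rows, and the neighbouring Spopfm2, listed as Gm10696, were treated as relatives and not as members. Of the Usp17l symbols of RefSeq, the pseudogene Usp17le-ps was not analysed here.

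The copies of a family are similar enough that reads can belong to several of them, so the first coding bases are shown to let the copies be told apart. They are the first 60 coding bases of each Tdpoz row from the GENCODE M21 transcripts, 5′ to 3′, with capitals where a base differs from Tdpoz1 at the same position.
Tdpoz1: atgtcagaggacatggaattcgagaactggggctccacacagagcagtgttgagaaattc
Tdpoz2: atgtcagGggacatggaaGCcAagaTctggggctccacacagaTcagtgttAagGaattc
Tdpoz3: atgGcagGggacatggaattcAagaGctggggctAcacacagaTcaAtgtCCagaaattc
Tdpoz4: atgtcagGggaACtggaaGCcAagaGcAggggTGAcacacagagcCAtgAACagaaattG
Tdpoz5: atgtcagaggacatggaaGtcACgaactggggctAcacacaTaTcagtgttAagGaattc
Gm10697: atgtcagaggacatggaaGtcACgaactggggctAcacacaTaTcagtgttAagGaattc

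Tdpoz5 and its relative Gm10697 were the same sequence over all 1023 coding bases. The other Tdpoz copies were more distant, with an identity of 77.8% to 88.1% over the aligned coding bases of the 10 pairs of members. The Usp17l members were closer to each other over the aligned bases, at 90.8% to 98.4%, and the closest pair was Usp17lc and Usp17ld, with 26 differences in 1638 coding bases. With gaps counted the ranges overlapped, at 72.1% to 88.1% for Tdpoz and 78.4% to 98.4% for Usp17l. The Tdpoz family also held close copies among the relatives. Gm9125 was 98.5% identical to Tdpoz1, and Gm4858 94.15% to Tdpoz4, over the aligned bases. The spliced coding starts of the Usp17l rows follow, with capitals where a base differs from Usp17lb, and Usp17le continues after its first exon with an exon that the others do not have there.
Usp17lb: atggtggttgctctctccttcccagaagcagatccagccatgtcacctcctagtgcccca
Usp17la: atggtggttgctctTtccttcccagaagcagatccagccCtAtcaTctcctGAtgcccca
Usp17lc: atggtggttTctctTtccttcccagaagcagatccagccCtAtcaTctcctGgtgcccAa
Usp17ld: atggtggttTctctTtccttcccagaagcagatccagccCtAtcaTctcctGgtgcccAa
Usp17le: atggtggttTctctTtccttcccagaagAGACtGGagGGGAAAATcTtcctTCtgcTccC

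How much of each transcript can be told from all other annotated genes was counted in windows of 150 bases, searched in both orientations in the 141767 GENCODE M21 transcripts. No window of Tdpoz5 was found in that gene alone. For Tdpoz3 the share was 66.6%, and for the other Tdpoz rows it was 87.6% (Tdpoz1), 91.2% (Tdpoz2) and 93.5% (Tdpoz4). Usp17la, Usp17lb and Usp17le were almost fully distinct, at 98.7%, 97.5% and 99.2%. Usp17lc and Usp17ld shared windows with each other, and 57.2% and 63.9% of their windows were their own. The GENCODE transcript was longer than the listed gene model for Usp17ld (1987 against 1638 bases), Tdpoz1 (2322 against 2302) and Usp17la (2656 against 2649). The shares of these 3 rows may include bases that were not counted.

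**Figure D1:**
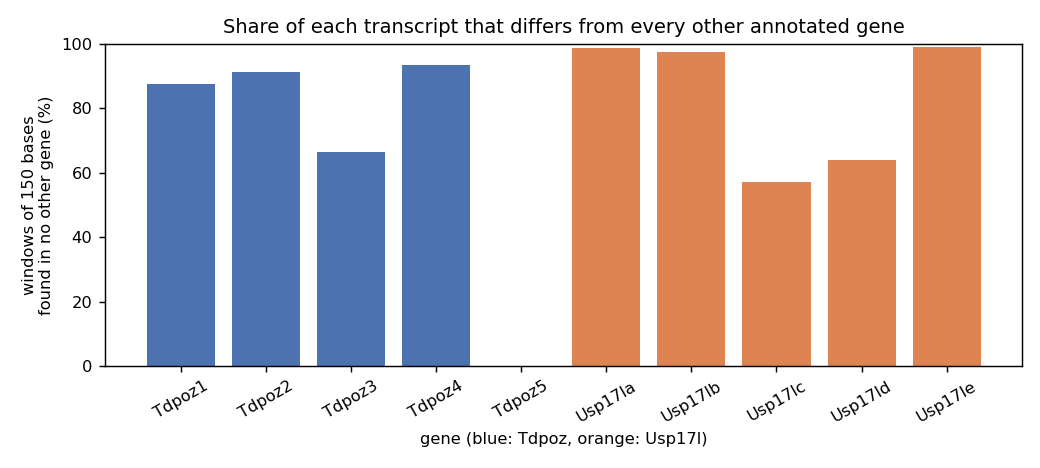
Bars give the percentage of windows of 150 bases in each member's GENCODE transcript that occur in no other annotated gene (vertical axis, 0 to 100%), for the 5 Tdpoz rows in blue and the 5 Usp17l rows in orange. Tdpoz5 has no bar because its share is 0, and Usp17lc, Usp17ld and Tdpoz3 lie between 57.2% and 66.6%.

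The paper states that only uniquely mapped reads were kept, yet Tdpoz5 was listed with 2978 to 4189 rounded counts per library, and Gm10697 had exactly the same expected count in every library. The value of Tdpoz5 therefore cannot be assigned to either locus. Counts of Tdpoz3, Usp17lc and Usp17ld are also uncertain, because copies can share or lose reads.

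Promoters from RefSeq (GRCm38.p6, 250 bases before to 50 after the start site) were held for 7 of the 10 members, which were Tdpoz1, Tdpoz4, Tdpoz5, Usp17la, Usp17lb, Usp17lc and Usp17ld. In Tdpoz4, Tdpoz5 and Usp17ld the annotated start site was the first coding base. The bases before it may therefore not be a promoter, and the motif matches of these genes are uncertain. None of these 7 contained the E-box letters CACGTG, the palindrome to which MYC and MAX are known to bind, which 7.15% of all 32851 promoters of that length contained. The wider form CANNTG, which includes CACGTG, was found in 6 of the 7 (not in Tdpoz4) and in 72.3% of all promoters. TATAAA was found on either strand in Usp17lb, Usp17lc and Usp17ld and in 13.6% of all promoters, and TATATAA on either strand in Tdpoz1 and in 3.24% of all promoters. Only letters were matched, and these matches are no evidence of binding. The 60 bases around the box are shown for Tdpoz1 (chr3:93676324-93676383, minus strand) and for Usp17lb (chr7:104842595-104842654, minus), Usp17la (chr7:104856930-104856989, plus), Usp17lc (chr7:103416568-103416627, plus) and Usp17ld (chr7:103252596-103252655, minus). Capitals mark the box, which in Usp17la reads TTTAAA. The boxes shown were located by the letters that follow them. TTTAAA also lay 30 bases before the annotated start site of Tdpoz4, and its share over all promoters was not counted. The box shown began 31 bases before the annotated start site in Usp17lb, 46 in Usp17la, 60 in Tdpoz1, 88 in Usp17lc and 110 in Usp17ld. Whether any of these stretches acts as a TATA box was not tested.
Tdpoz1: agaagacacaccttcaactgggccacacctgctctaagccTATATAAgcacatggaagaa
Usp17lb: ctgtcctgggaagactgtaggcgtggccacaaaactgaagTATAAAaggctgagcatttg
Usp17la: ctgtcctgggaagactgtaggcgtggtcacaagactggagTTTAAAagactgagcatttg
Usp17lc: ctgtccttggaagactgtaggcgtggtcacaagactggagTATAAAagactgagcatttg
Usp17ld: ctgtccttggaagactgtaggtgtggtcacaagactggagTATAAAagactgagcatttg

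The expected counts summed to between 18206584 and 20718690 per library. The controls differed more from each other than the treated libraries did. Over all 13549 tested genes, the median absolute log2 difference in CPM was 0.76 between the controls and 0.36 between the treated libraries. DMSO replicate 1 lay farther than DMSO replicate 2 from the mean log2 CPM of the treated libraries for 77.2% of these genes. Which control is the unusual one cannot be told from 2 controls. The 6 two-cell markers (Zscan4c, Zscan4d, Zscan4f, Zfp352, Tcstv1 and Tcstv3) were above 1 FPKM in every library, and together they reached 926 and 3567 FPKM in the controls (replicates 1 and 2) and 4660 and 4937 FPKM after treatment. The 12 oocyte-stored transcripts together reached 966 and 2465 FPKM in the controls and 4740 and 3970 FPKM after treatment. Most of each sum was Oosp1, with 555 and 1572 FPKM in the controls and 3691 and 2917 FPKM after treatment. In CPM, 11 of the 12 were higher in DMSO replicate 2 than in DMSO replicate 1. Zp3 went the other way, with 205 FPKM in DMSO replicate 1 and 75.1 FPKM in DMSO replicate 2. Of 12 cumulus and granulosa cell markers, 6 were at 0 in every library (Amh, Ptx3, Inha, Inhba, Foxl2 and Fst), and their sum was 0.580 to 5.16 FPKM. Of 6 sperm and testis markers, Prm1 and Tnp2 were at 0 in every library, and the list summed to 2.7 to 16.1 FPKM, most of it Prm2. The 6 trophectoderm markers summed to 2.99 to 12.7 FPKM.

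All 10 members had counts above 0 in all libraries and passed the filter on low counts, although Usp17le had only 2 counts in DMSO replicate 1. FPKM, which divides the reads by the length of the gene model and by the depth of the library, sets the members beside each other. As listed, Usp17lb was the highest member in each of the 4 libraries, followed in each by Tdpoz5, Tdpoz1 and Tdpoz4. The place of Tdpoz5 depends on how reads were split between it and the identical Gm10697. These 2 rows together had 418 and 512 FPKM in control and 408 and 568 FPKM in treated embryos, above Usp17lb in each library. Ordered by their mean, Tdpoz3, Usp17lc, Usp17la, Tdpoz2 and Usp17ld came next, but this order did not hold in DMSO replicate 1, where Tdpoz2 was above Tdpoz3 and Usp17ld above Usp17lc. Usp17la was above Tdpoz2 in 2 of 4 libraries, and Tdpoz2 above Usp17ld in 2 of 4. Usp17le was the lowest in every library.

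Usp17lb, also known as Dub1a, had 307 and 456 FPKM in DMSO replicates 1 and 2, and 324 and 469 FPKM in inhibitor-treated replicates 1 and 2. These values placed it at ranks 497, 306, 380 and 268 of the 24411 genes. The groups overlapped, and the difference between replicates of a group was larger than that between the groups. Tdpoz5 had 209 and 256 FPKM in control and 204 and 284 FPKM in treated embryos, again with overlap, and Gm10697 was listed with the same values.

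Tdpoz1, which codes for the longest Tdpoz transcript among the members, had 48.2 and 114 FPKM in control and 90.7 and 120 FPKM in treated embryos. Tdpoz4 had 44.7 and 79.8 FPKM in control and 76.2 and 78.7 FPKM in treated embryos. In both genes DMSO replicate 1 was low, and DMSO replicate 2 was among or above the treated libraries.

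The values of Tdpoz3 were 17.2 and 48.4 FPKM in control and 73.9 and 74.5 FPKM in treated embryos, and both treated libraries were above both controls. Tdpoz2, in contrast, had 18.5 and 27.2 FPKM in control and 9.20 and 16.5 FPKM in treated embryos, so that both treated libraries were below both controls. The ratio of Tdpoz3 to Tdpoz2 in FPKM was 0.930 and 1.77 in control and 8.03 and 4.52 in treated embryos. This ratio was chosen after the values were seen and was not tested.

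Usp17la, also known as Dub1, had 3.83 and 26.9 FPKM in control and 36.5 and 24.3 FPKM in treated embryos. Usp17lc, also known as Dub2, had 5.62 and 31.2 FPKM in control and 36.9 and 40.5 FPKM in treated embryos. Usp17ld, also known as Dub2a, had 6.38 and 17.4 FPKM in control and 17.9 and 19.5 FPKM in treated embryos. In these 3 genes DMSO replicate 1 was the low library, and DMSO replicate 2 lay near the treated libraries. Usp17le, also known as Dub3, had 0.0700 and 7.87 FPKM in control and 8.93 and 4.20 FPKM in treated embryos. Its reads numbered 2 and 230 in the controls and 298 and 133 after treatment, and 2 counts are below the limit of 3 that a count of 0 allows, so no fold between the controls is given.

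**Figure D2:**
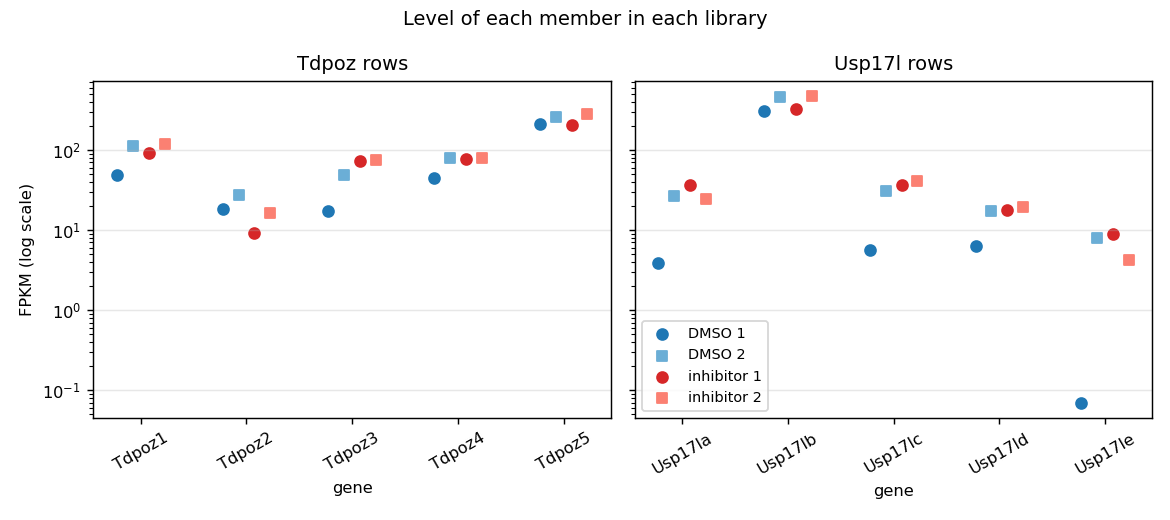
Points give the FPKM (vertical axis, log scale) of each Tdpoz row (left) and each Usp17l row (right) in each library, blue for DMSO and red for inhibitor-treated, circles for replicate 1 and squares for replicate 2. DMSO replicate 1 lies far below the other 3 libraries for Usp17la, Usp17lc, Usp17ld and Usp17le, and near them for Usp17lb and Tdpoz5.

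The groups were compared by the quasi-likelihood test of edgeR over 13549 genes, with Benjamini-Hochberg adjustment. With |log2FC| > 1 and an adjusted p under 0.05, 0 of the 10 members were differentially expressed, as were 0% of all tested genes. An unadjusted p under 0.05 was found for 0 members and for 14.9% of all genes (4.72% higher and 10.1% lower in treated embryos). DESeq2, given the effective lengths, also called 0 members, against 6.89% of the genes for which it gave an adjusted p. Usp17le had no adjusted p there and could not be called. In that fit 1 member had an unadjusted p under 0.05, as did 15.5% of all its genes. In simulated counts edgeR called 9.33% of the altered genes, each moved by a log2FC of 2, at this number of libraries, so a change of that size could be missed. An exact two-sided permutation test of a single gene cannot give a p under 0.333 with 2 libraries against 2.

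Tdpoz3 had the largest log2FC of the Tdpoz rows, 1.10 (standard error 0.50, 95% interval -0.06 to 2.26, adjusted p = 0.346 from edgeR). Tdpoz2 had the lowest, -0.95 (standard error 0.51, interval -2.13 to 0.23, adjusted p = 0.392 from edgeR). The log2FC was 0.29 for Tdpoz1, 0.21 for Tdpoz4 and -0.06 for Tdpoz5, with standard errors from 0.36 to 0.43 and adjusted p-values from 0.765 to 0.945 from edgeR. Of the 5 Tdpoz rows, 3 were higher and 2 lower in treated embryos, with a median log2FC of 0.21 against 0.04 over all tested genes, of which 51.5% were higher. The groups did not overlap for 1 row higher in treated embryos (Tdpoz3) and 1 lower (Tdpoz2), where 28.9% of all tested genes were higher without overlap and 28.3% lower.

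Among the Usp17l rows, Usp17lc had the largest log2FC, 1.02 (standard error 0.67, interval -0.55 to 2.58, adjusted p = 0.468 from edgeR). Usp17la followed with 0.94 (standard error 0.74, interval -0.80 to 2.68, adjusted p = 0.540), then Usp17le with 0.71 (standard error 1.38, adjusted p = 0.823) and Usp17ld with 0.56 (standard error 0.52, adjusted p = 0.604). The log2FC of Usp17lb was -0.07 (standard error 0.38, interval -0.95 to 0.82, adjusted p = 0.943 from edgeR). Of the 5 Usp17l rows, 4 were higher and 1 lower in treated embryos, with a median log2FC of 0.71, and the groups did not overlap for 2, Usp17lc and Usp17ld, both higher. Over all tested genes the median was 0.04, 51.5% were higher, and 28.9% were higher without overlap. The direction of Usp17lb, and that of Tdpoz5, turned when only library totals were used for scaling (0.059 and 0.077) and in limma on log2(FPKM + 1) (0.058 for both).

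Most of these differences rested on DMSO replicate 1. Without it, the median log2FC was -0.064 for the Tdpoz and 0.10 for the Usp17l rows. Tdpoz1, Tdpoz4 and Usp17le then turned to -0.11, -0.040 and -0.26, Usp17la fell to 0.18 and Usp17lc to 0.31. Tdpoz2 was at -1.08 and Tdpoz3 fell to 0.62, with adjusted p-values of 0.343 and 0.366 from edgeR. Without DMSO replicate 2, so that DMSO replicate 1 was the lone control and was taken to vary like the treated libraries, 5 of the 10 members passed both thresholds, all higher in treated embryos, against 14.6% of all genes in that direction and 28.7% in either. They were Tdpoz3 (1.85), Usp17la (2.72), Usp17lc (2.51), Usp17ld (1.28) and Usp17le (6.32), with adjusted p-values from 0.000896 to 0.0391 by edgeR, and the value of Usp17le stands on 2 counts.

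**Figure D3:**
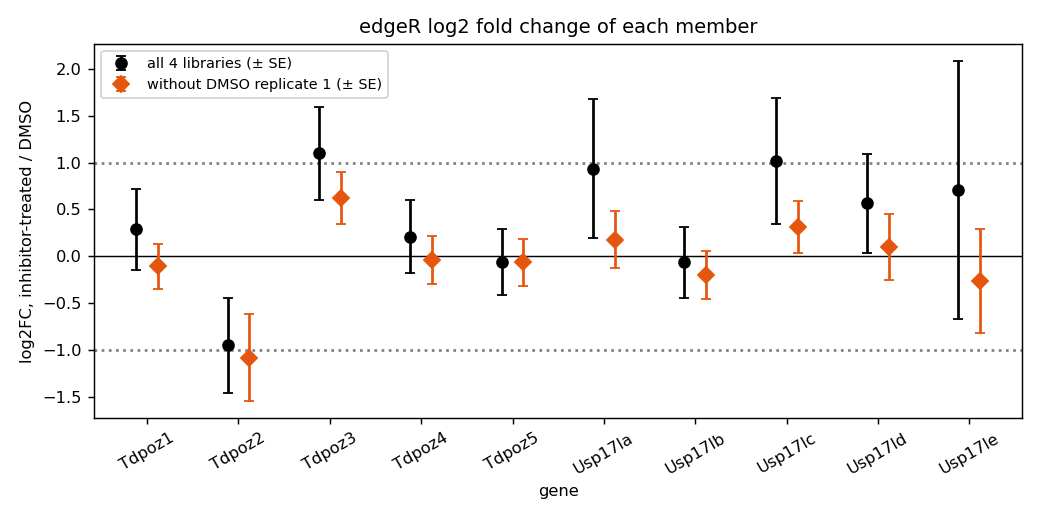
Points give the log2FC of inhibitor-treated against DMSO-treated embryos (vertical axis) for each member from edgeR, with standard errors as bars, for all 4 libraries (black) and without DMSO replicate 1 (orange). Dotted lines mark a log2FC of 1 and -1. Without DMSO replicate 1 the Usp17l rows lie between -0.26 and 0.31, with Tdpoz2 at -1.08 and Tdpoz3 at 0.62.

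The copies differed in how far this library lay from the other control. All 10 members were higher in DMSO replicate 2 than in DMSO replicate 1 in CPM (library-scaled counts, with TMM factors), where 51.6% of all tested genes were. The CPM differed at least 2-fold in that direction for 5 members and for 26.7% of all genes. The fold was 5.89 for Usp17la, 4.65 for Usp17lc, 2.37 for Tdpoz3, 2.30 for Usp17ld, 1.98 for Tdpoz1 and 1.5 for Tdpoz4, and it was 1.25 for Usp17lb, 1.24 for Tdpoz2 and 1.03 for Tdpoz5. The summed two-cell markers and oocyte-stored transcripts given above were likewise lowest in DMSO replicate 1, although Zp3 was highest there. The part of these transcripts in the values of the members was not tested. In bulk libraries, fewer embryos or cells with a transcript and less of it per cell cannot be told apart.

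The values were also summed over the members of each family. For Usp17l, whose rows shared windows mainly with each other, this lessens the effect of how reads were split. The Tdpoz members shared windows only with genes outside their sum, such as Gm10697, so their sum keeps that effect. The Tdpoz rows had 338 and 525 FPKM in control and 454 and 574 FPKM in treated embryos. The Usp17l rows had 323 and 539 FPKM in control and 424 and 557 FPKM in treated embryos. The 5 Tdpoz and 5 Usp17l rows were, as listed, at similar totals, with a ratio of 1.05, 0.974, 1.07 and 1.03 in the 4 libraries. With the Tdpoz relatives Gm4858, Gm9125 and Gm10697 added, the 8 Tdpoz rows had 966 and 1371 FPKM in control and 1065 and 1357 FPKM in treated embryos, and the ratio to Usp17l was 2.99, 2.54, 2.51 and 2.44. The summed CPM was 448 ± 115 (SD, n = 2) for Tdpoz in the controls and 507 ± 78.8 (SD, n = 2) after treatment, against 530 ± 147 (SD, n = 2) and 581 ± 81.8 (SD, n = 2) for Usp17l. The log2 ratio of the sums was 0.18 for Tdpoz and 0.13 for Usp17l, the groups overlapped in both, and without DMSO replicate 1 the ratios were -0.06 and -0.13.

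As listed, the members of the families differed in how their total was spread over copies. A single copy, Usp17lb, gave 76.4% to 95.1% of the Usp17l FPKM, and no other Usp17l row gave more than 8.69%. Of the summed FPKM of the 5 Tdpoz members, Tdpoz5 gave 45.0% to 62.0%, Tdpoz1 14.3% to 21.6%, Tdpoz4 13.2% to 16.8%, Tdpoz3 5.08% to 16.3% and Tdpoz2 2.03% to 5.47%. Tdpoz5 cannot be told from Gm10697, so these shares depend on how their reads were split. Together Tdpoz5 and Gm10697 had 418 and 512 FPKM in control and 408 and 568 FPKM in treated embryos. The other 4 Tdpoz members summed to 128 and 269 FPKM in control and 250 and 290 FPKM in treated embryos. Over the 8 Tdpoz rows with the relatives, the share of Tdpoz5 was 18.7% to 21.7%. In counts, which are not divided by length, Tdpoz1 was above Tdpoz5 in 3 of 4 libraries, with 41.8%, 39.1% and 40.8% of the members' counts against 34.6%, 32.6% and 35.5%. The 4 Usp17l rows other than Usp17lb summed to 15.9 and 83.4 FPKM in control and 100.2 and 88.4 FPKM in treated embryos. The ratio of Usp17lb to their sum was 19.3 in DMSO replicate 1 and 5.47, 3.23 and 5.30 in the other libraries.

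**Figure D4:**
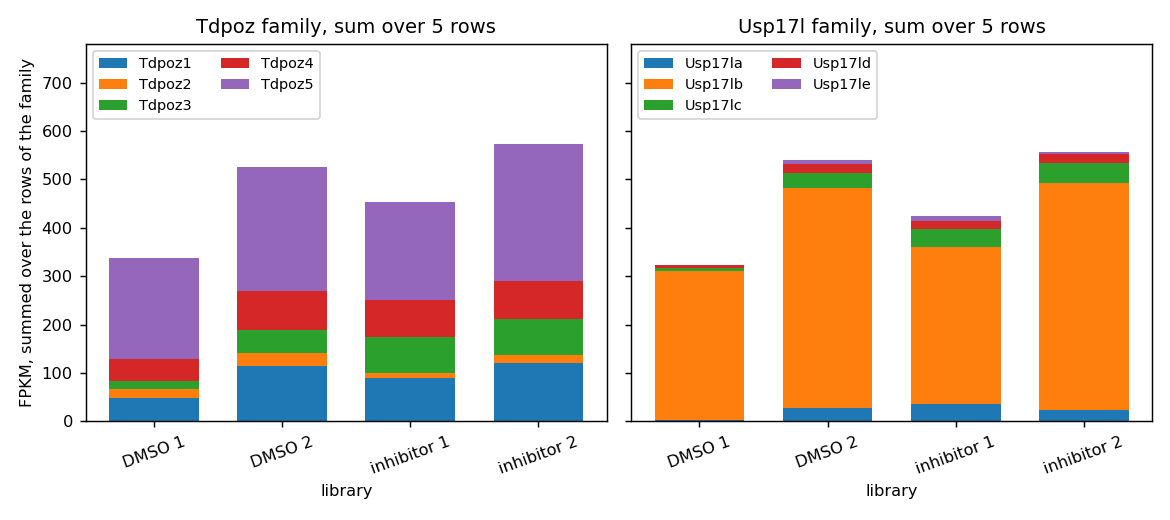
Stacked bars give the FPKM of the 5 Tdpoz rows (left) and the 5 Usp17l rows (right) summed in each library (vertical axis, from 0), with 1 colour per row. The totals of these 10 rows lie between 323 and 574 FPKM per family and library, with Usp17lb at 76.4% or more of the Usp17l total, and the Tdpoz relatives under Gm symbols are not included.

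Of the Tdpoz relatives, Gm9125 was listed higher than every Tdpoz member in each library, but its value is uncertain too, since 20.7% of its windows were its own and 79.3% were shared with Gm9117. Gm9125 (Tdpoz9), which shared 98.5% of its coding bases with Tdpoz1, had 412 and 578 FPKM in control and 391 and 482 FPKM in treated embryos. In edgeR this gave -0.31 on the log2 scale (standard error 0.37, adjusted p = 0.698). Gm4858 (Tdpoz8) had 7.30 and 11.7 FPKM in control and 14.8 and 17.1 FPKM in treated embryos, with a log2FC of 0.64 (adjusted p = 0.484 from edgeR). Gm10696 (Spopfm2), a further gene with the same domains, had 141 and 272 FPKM in control and 274 and 318 FPKM in treated embryos, with a log2FC of 0.41 (adjusted p = 0.612 from edgeR). When Gm4858, Gm9125 and Gm10697 were added to the Tdpoz sum, its log2 ratio was -0.12 instead of 0.18.

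Of the genes listed as the CUL3 ligase with its NEDD8 and COP9 signalosome partners, all 25 were tested and 0 passed both thresholds in edgeR. An unadjusted p under 0.05 was found for 0 higher and 1 lower gene (4.72% and 10.1% of all genes), and the median log2FC was -0.37 (-0.03 without DMSO replicate 1). Cul3 itself, the scaffold of the ligase, had 701 and 615 FPKM in control and 329 and 471 FPKM in treated embryos, which in edgeR was -0.87 on the log2 scale (adjusted p = 0.350, standard error 0.40). Cops6, a signalosome subunit, had a log2FC of -1.69 (adjusted p = 0.333 by edgeR and 0.0309 by DESeq2), and it was -0.78 without DMSO replicate 1.

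Of 48 tested genes for other ubiquitin-specific proteases, 0 passed both thresholds in edgeR, and 3 were higher and 5 lower with an unadjusted p under 0.05, near the 4.72% and 10.1% of all genes. DESeq2 called 1 higher and 2 lower, near its 6.89% of all genes. Usp2 had 4.89 and 9.01 FPKM in control and 32.01 and 17.6 FPKM in treated embryos, a log2FC of 1.73 (adjusted p = 0.333 by edgeR and 0.0231 by DESeq2) that was 1.46 without DMSO replicate 1. Usp29 had 49.8 and 27.1 FPKM in control and 10.8 and 15.8 FPKM in treated embryos, a log2FC of -1.72 (adjusted p = 0.333 by edgeR and 0.0193 by DESeq2) that was -1.03 without DMSO replicate 1. For both genes the groups did not overlap. The next 2 by p, Usp14 and Usp22, had log2FC values of -1.59 and -1.47 (adjusted p = 0.333 by edgeR for both). The median log2FC of the proteases was -0.15.

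Of 28 tested genes of other families that are transcribed briefly at the two-cell stage, 23 were higher and 5 lower in treated embryos, with a median log2FC of 0.94 (0.44 without DMSO replicate 1), and 24 were higher in DMSO replicate 2 than in DMSO replicate 1, where 51.5% and 51.6% of all genes were. In edgeR 0 passed both thresholds, and DESeq2 called 2 higher and 1 lower, against 6.89% of all genes in either direction. The lower one was Trim43c, a tripartite motif gene, with 500.4 and 470 FPKM in control and 192 and 252 FPKM in treated embryos and a log2FC of -1.28 (adjusted p = 0.333 by edgeR and 0.0369 by DESeq2). The next 3 by p, Trim43a, Gm2022 and Trim43b, had log2FC values of -1.32, 1.22 and -1.06 (adjusted p = 0.333 by edgeR for each). The 6 two-cell markers given above belong to this list and are not a separate set of genes. Several rows of this list are themselves multicopy genes and are uncertain in the same way.

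The genes whose pattern over the 4 libraries was nearest to the mean of each family were found by the root mean square distance of centred log2 CPM among 10532 genes. They were Mb, Yod1, Mprip, Samd4b and Cdc123 for Tdpoz, at distances of 0.031 to 0.044, and Zar1, Pfn2, Smyd4, Rgs2 and Krt10 for Usp17l, at 0.039 to 0.067. Each row had the same weight in the mean of its family. Usp17le, with 2 counts in DMSO replicate 1, thus weighed as much as Usp17lb, whose CPM differed 1.25-fold between the controls. The Usp17l pattern is therefore not that of Usp17lb, the highest row. Zar1, a transcript stored in the oocyte, had 3.31 and 19.8 FPKM in control and 19.8 and 18.5 FPKM in treated embryos. With only 4 libraries, many genes can share a pattern.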

How the data were processed

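Libraries were grouped by their labels. The authors sequenced SMART-Seq libraries as read pairs, aligned them to mm10 with STAR (2.7.10) and estimated gene values with RSEM (1.3.3). The deposited expected counts are RSEM's estimates of fragments per gene and are not normalized. The TPM and FPKM deposited by the authors are scaled for effective length and depth, and TPM was used only to check the unit. Expected counts were rounded, filtered with filterByExpr (minimum count 10, minimum total 15), scaled with TMM factors (0.873, 1.04, 1.04 and 1.06) and tested with edgeR 4.0.16 in R 4.3.3. The common biological coefficient of variation was 0.557. Replicates are separate pools of embryos, and p-values measure only the spread between these libraries. PCR copies were counted like molecules, so the limit of 3 given for a count of 0 covers counting error only. The 95% intervals of edgeR also include the spread between libraries. Alternatives were DESeq2 1.42.0, limma 3.58.1 on log2(FPKM + 1) and log2(FPKM + 0.1), other scalings, no filter, a block and each library left out. The thresholds were those of the study.

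The members and lists were chosen with earlier results of these data known. The text names every member, its relatives, up to 4 genes per list by smallest edgeR p, and the 5 nearest genes by pattern with a mean FPKM of at least 1. In 3 simulations of 13549 genes, 200 were given a log2FC of 2, and edgeR called 9.33% and DESeq2 39.3% of them, and 5.08% and 30.8% of their calls were unchanged genes. Identities are from global alignments of GENCODE M21 coding sequences.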

Additional observations from a re-analysis of the deposited data

How the results depend on the processing

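Of 130 member values under the alternatives, 113 kept their direction and their side of the thresholds, 12 reversed and 5 passed the thresholds, all 5 without DMSO replicate 2. The reversed values were small. They were -0.11 for Tdpoz1, -0.040 for Tdpoz4 and -0.26 for Usp17le without DMSO replicate 1, and 0.10 for Usp17lb without DMSO replicate 2. Without inhibitor-treated replicate 1 they were 0.19 for Tdpoz5 and 0.20 for Usp17lb, with library totals alone 0.077 and 0.059, with limma on log2(FPKM + 1) 0.058 and 0.058, and with limma on log2(FPKM + 0.1) 0.058 and 0.058. When single libraries were left out, these members reached 0.86 (Tdpoz1) and 6.32 (Usp17le) without DMSO replicate 2, and -0.30 (Tdpoz5) and -0.34 (Usp17lb) without inhibitor-treated replicate 2. The median log2FC then lay between -0.064 and 0.53 for Tdpoz and between 0.10 and 2.51 for Usp17l, and the log2 ratio of the sums between -0.06 and 0.47 and between -0.13 and 0.45. The sum of the Usp17l rows without Usp17lb, chosen after seeing the data, had a log2 ratio of 0.88, which was 0.16 without DMSO replicate 1. Library totals alone moved the median log2FC of all genes from 0.04 to 0.17. The number of genes called among all tested was 0, against 576 by DESeq2 on the same genes, 524 on all genes with at least 1 count, 525 with effective lengths, 644 by edgeR without the filter, and 2 to 4213 with 1 library left out. The cause was not tested. With the replicate number as a block 44 genes and 0 members were called, the median log2FC was 0.24 for Tdpoz and 1.40 for Usp17l, and same-numbered libraries did not deviate together (r = -0.0711 over 13549 genes, which are not replicates), so the numbers were not taken as pairs. Depth limits Usp17le alone among the members, with 2 counts in DMSO replicate 1.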
